A study of Mus musculus with 28 samples.

Results

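Activated CD8 T cells from mouse spleen, cultured with 10 nM romidepsin, were compared with activated CD8 T cells of the stimulated control, across all genes on the array. The comparison rests on 4 of the 28 arrays of the series, 2 of each group, and each romidepsin array was paired with the control array of the same replicate number. Each gene was represented by 1 probe set, the one with the highest mean over the 28 arrays, which gave 18193 genes. Of these, 9874 (54.3%) were tested, because their log2 expression was over a detection level of 4.27 in at least 2 arrays of the series. Splenic T cells of both groups were obtained by negative selection and stimulated for 2 days with plate-bound anti-CD3 (3 µg/ml) and soluble anti-CD28 (5 µg/ml) antibodies. Romidepsin was then present for 1 day, and the control cells had the same stimulation. No vehicle, mouse strain, age, sex or genotype is named in the labels. Nothing says that replicate numbers stand for separate animals or cultures, so the p-values measure a spread between arrays that may be technical. That spread was estimated over all 28 arrays, so the standard errors and p-values below do not come from the compared pairs alone. For single genes the pairs can differ by more than the standard error conveys. RNA was measured in bulk, so fewer cells of a type and less RNA per cell cannot be told apart.

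Histone deacetylases remove acetyl groups from lysines of histones and of many other proteins, and on chromatin they act mostly within repressor complexes. Romidepsin is a cyclic depsipeptide prodrug whose reduced thiol binds the zinc of class I histone deacetylases, and it is used against T cell lymphomas. An activated CD8 T cell divides fast and makes granzymes, perforin, interferon gamma and chemokines, and its fate is set by transcription factors such as T-bet, Blimp-1 and Irf4.

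The arrays carried the markers of their labelled cell type. Cd8a, the alpha chain of the CD8 coreceptor, had log2 levels of 11.08 and 11.59 in control replicates 1 and 2 and of 10.77 and 11.39 in the romidepsin replicates. Cd4, Cd40lg and Foxp3, which mark CD4 T cells, were under detection in all 4 arrays, and the fourth marker of that list, Zbtb7b, lay between 4.18 and 4.63. Of the NK cell list only Nkg7, which CD8 T cells also express, and of the macrophage list only Cd68 were detected. As a measure of RNA quality, the log2 difference between 3' and 5' beta-actin probe sets was 0.857 and 0.790 in the control arrays and 1.01 and 0.847 in the romidepsin arrays. It was thus higher with romidepsin in both replicates, and at 30 nM it was 1.23 and 0.901 in CD8 cells. Over the series it ranged from 0.748 to 1.62, the highest value in a drug-treated CD4 array. The CD4 controls had 0.944 and 0.784. Replicates 1 and 2 stood apart in every group, and the control arrays had 8484 and 9060 genes over the detection level against 8620 and 9221 in the romidepsin arrays. In both groups the lowest value was 2.2684 in replicate 1 and 2.2545 in replicate 2, and the array medians were 2.31 and 2.37. The overlap of groups and the fit without the block compare across this difference between replicates.

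Romidepsin at 10 nM changed 1695 genes in the CD8 cells, 17.2% of those tested, by limma with the replicate number as a block and a Benjamini-Hochberg adjusted p under 0.05. Of these, 893 rose (9.04%) and 802 fell (8.12%). The rises were larger: their median log2 change was 0.89, against -0.60 for the falls, and 380 genes rose by at least 2-fold while 85 fell by as much. At a change of at least 4-fold, 78 genes rose and 2 fell. The median change of all tested genes was -0.02. Each of the 1695 genes moved the same way in both replicate pairs, as did 72.4% of all tested genes, and a fit on pairs selects for this. In 1053 of them (10.7% of the tested genes) the romidepsin arrays and the control arrays did not overlap, an arrangement found in 2452 (24.8%) of all tested genes. Replicate 1 moved more than replicate 2 in 1424 of the 1695 genes.

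**Figure D1:**
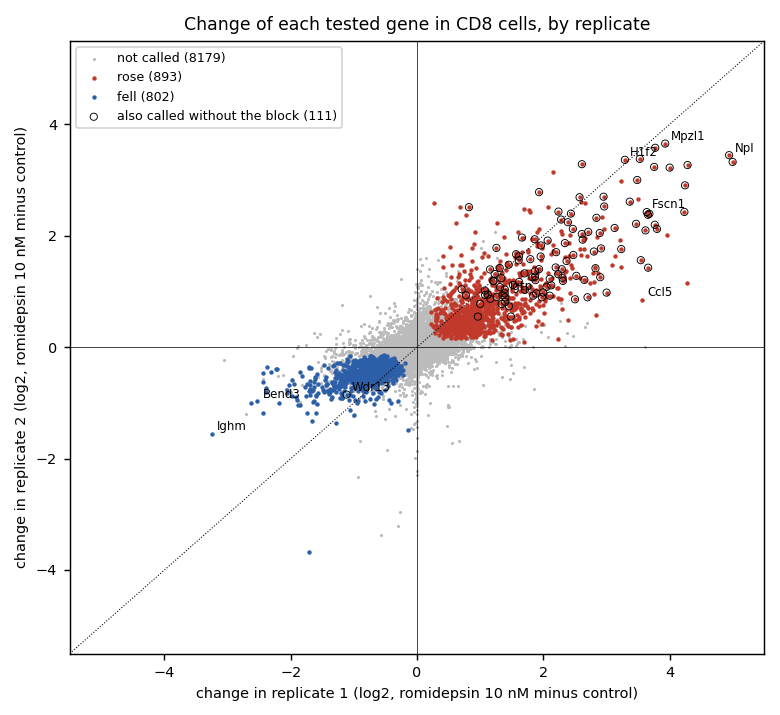
Change of each of the 9874 tested genes (log2, romidepsin 10 nM minus control in CD8 cells) in replicate 1 on the x axis and replicate 2 on the y axis. Red points are the 893 genes that rose, blue points the 802 that fell, grey points the genes not called, and black rings the 111 genes also called without the replicate block; the dotted line marks equal changes.

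How many genes pass depends on the pairing of the arrays. Without the block, 111 genes passed (1.12%), of which 110 rose (1.11%) and 1 fell (0.0101%), and all 111 were also among those called with it. Leaving out romidepsin replicate 1 left 252 calls, 213 up and 39 down, and leaving out control replicate 1 left 347, 299 up and 48 down. The single fall that passed without the block was that of Wdr13, a WD-repeat protein. Its log2 levels were 7.52 and 7.47 in the control and 6.41 and 6.62 in the romidepsin arrays, a change of -0.98 ± 0.16 (SE, n = 2 pairs; adjusted p = 0.00107).

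Rises were ranked among genes detected in both groups and without overlap, with clone and predicted-gene names left aside. The strongest was that of Mpzl1, a cell-surface glycoprotein that binds the phosphatase SHP2. Its log2 level was 5.02 and 3.52 in control replicates 1 and 2 and 8.95 and 7.18 in romidepsin replicates 1 and 2. Replicate 2 was lower in both groups, and the groups did not overlap. The change was 3.79 ± 0.31 (SE, n = 2 pairs), or 13.9-fold, with an adjusted p of 4.12e-06. The 250 bases before its start (GRCm38.p6, chr1:165634542-165634791, minus strand; RefSeq) are shown because the GC box GGGCGG, in capitals and searched on both strands, was more frequent before genes that rose. Of 8103 tested genes with such a window, 62.0% held the GC box, against 70.5% of the 711 that rose and 58.4% of the 668 that fell, and 32.9% of all 27025 windows. The Mpzl1 window held 3 copies.
Mpzl1: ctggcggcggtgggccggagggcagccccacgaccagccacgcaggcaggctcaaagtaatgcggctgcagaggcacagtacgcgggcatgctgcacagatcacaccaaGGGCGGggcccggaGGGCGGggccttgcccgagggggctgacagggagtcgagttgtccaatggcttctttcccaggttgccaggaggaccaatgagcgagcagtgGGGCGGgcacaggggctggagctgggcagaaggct

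Septin4 and H1f2, the next largest rises, have no GC box in their windows. Septin4, a GTP-binding septin of the cytoskeleton, was at 3.48 and 5.12 in the control and at 7.72 and 7.54 with romidepsin, and the romidepsin arrays lay closer to each other than the control arrays. It rose by 3.33 ± 0.50 (adjusted p = 0.000623). H1f2, which encodes linker histone H1.2, was at 6.28 and 6.41 in the control and at 9.57 and 9.77 with romidepsin. Both replicates of each group lay close together, and the change was 3.33 ± 0.34 (adjusted p = 2.1e-05). Its sequence resembles other linker histone genes, and it was the single one of 9 tested genes for linker and variant histones that passed.

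Several of the largest rises belong to proteins that shape the cell cortex. Marcks, a protein kinase C substrate that binds actin and the plasma membrane, went from 6.15 and 5.56 to 9.64 and 8.56, and all 5 of its detected probe sets rose. Its change was 3.24 ± 0.21 (adjusted p = 1.03e-06). Fscn1, the actin-bundling protein fascin, went from 8.38 and 7.66 to 12.02 and 10.08. The replicate 1 arrays were the higher ones in both groups, and the change was 3.03 ± 0.26 (adjusted p = 6.71e-06). Myh10, a heavy chain of nonmuscle myosin II, went from 5.40 and 4.30 to 8.36 and 6.83 and rose by 2.74 ± 0.27 (adjusted p = 1.51e-05). The other 4 of the 10 largest rises without overlap between detected groups were those of Plagl1, a zinc finger transcription factor (2.98), Acbd7, an acyl-CoA-binding protein (2.96), Frmd4b, a FERM domain scaffold (2.65), and Lrp11, a member of the LDL receptor-related family (2.63). Frmd4b and Lrp11 were not called without the block, where their adjusted p was 0.155 and 0.0823, and the other 8 were.

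Some rises started below the detection level, where 171 of the 893 had their control mean. A gene at such a level was tested only if at least 2 arrays of the series were above it, so this count is a description. Npl, a sialic acid-degrading lyase, was at 4.13 and 4.10 in the control and at 9.07 and 7.55 with romidepsin. Both control arrays sat just under the detection level and the romidepsin arrays were far above it, a rise of at least 16.5-fold against that level (adjusted p = 4.34e-06). Dsp, the desmosome protein desmoplakin, rose at least 9.12-fold, from 4.25 and 3.31 to 8.02 and 6.88 (adjusted p = 2.11e-05). Kif5c, a kinesin heavy chain best known from neurons, rose at least 7.10-fold, from 3.96 and 4.25 to 7.33 and 6.86 (adjusted p = 2.55e-05). Neither of these had overlapping groups. Dmxl2, which takes part in assembly of the vesicle proton pump, rose at least 6.38-fold, Selenom, a selenoprotein of the endoplasmic reticulum, at least 5.34-fold, and Ripk4, a kinase of epithelial differentiation, at least 5.27-fold. All 6 of these genes also passed without the block.

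**Figure D2:**
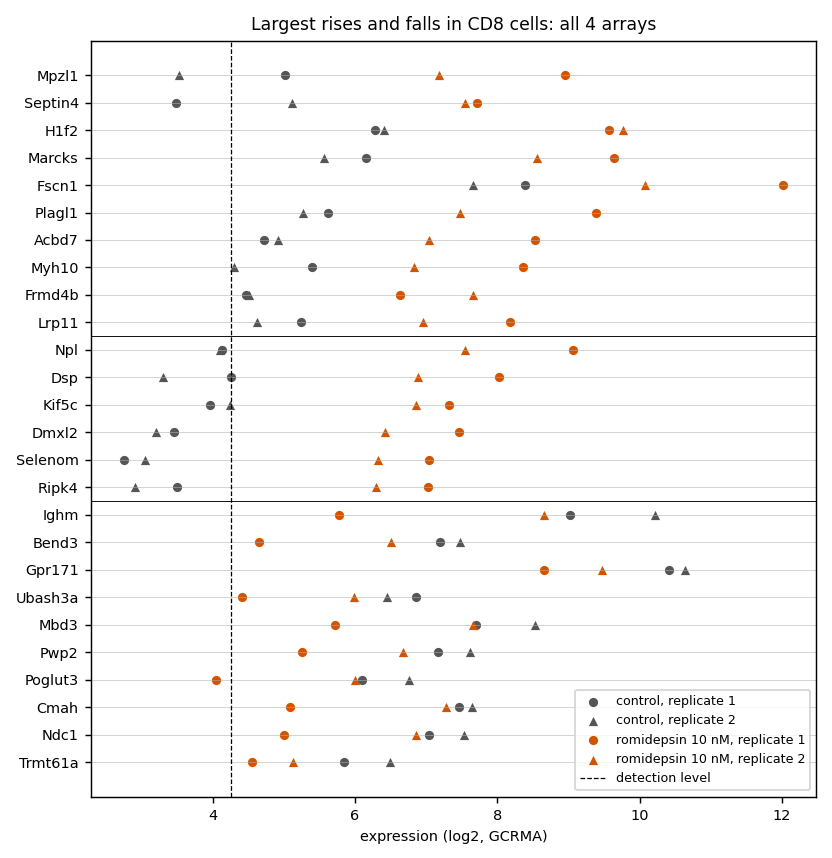
Log2 expression (x axis) of 26 genes in all 4 arrays, grey for control and orange for romidepsin 10 nM, circles for replicate 1 and triangles for replicate 2; the dashed line is the detection level of 4.27. The 10 upper genes are the largest rises between detected means, the middle 6 rose from under detection, and the lower 10 are the largest falls between detected means. All were ranked among genes whose groups did not overlap. Among the falls, the romidepsin circles lie farther from the control than the triangles do for Ighm (5.77 against 9.02) and Bend3 (4.66 against 7.19).

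The falls were smaller than the rises. Ighm, the immunoglobulin mu heavy chain of B cells, was at 9.02 and 10.21 in the control and at 5.77 and 8.65 with romidepsin. Its groups did not overlap, and it fell by 2.40 on the log2 scale (SE 0.63, n = 2 pairs; adjusted p = 0.0181), with 3 of its 4 detected probe sets going down. Markers of B cells were read beside it. The summed log2 level of the 9 B cell markers on the array was 7.21 and 9.20 in the control and 6.25 and 8.17 with romidepsin, and Cd79b, a chain of the B cell receptor, went from 6.77 and 8.81 to 4.92 and 7.82. Ms4a1, which encodes CD20, was at 2.31 and 6.24 in the control and at 2.28 and 4.25 with romidepsin. Over detection were 1 and 3 of the 9 markers in the control arrays and 1 in each romidepsin array, Cd79a and Pax5 were under detection throughout, and none of the 5 B cell markers tested passed by limma, with 1 at an unadjusted p under 0.05. Their part in the fall of Ighm was not tested.

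Bend3, a heterochromatin-bound repressor, fell by 1.75 ± 0.41 (adjusted p = 0.0103), from 7.19 and 7.48 to 4.66 and 6.51. Gpr171, a G protein-coupled receptor of T cells, fell by 1.46 ± 0.35 (adjusted p = 0.0124), from 10.41 and 10.64 to 8.66 and 9.47. Ubash3a, a negative regulator of T cell receptor signalling, fell by 1.45 ± 0.47 (adjusted p = 0.0476), from 6.85 and 6.45 to 4.41 and 5.99. In each of these the groups did not overlap, and replicate 1 fell further than replicate 2. The 10 largest falls were ranked among genes detected in both groups and without overlap, with clone and predicted-gene names left aside. The other 6 were Mbd3, a subunit of the NuRD deacetylase complex (-1.42), Pwp2, of the small ribosomal subunit processome (-1.42), Poglut3, a protein O-glucosyltransferase (-1.41), Cmah, which hydroxylates sialic acid (-1.36), Ndc1, of the nuclear pore (-1.36), and Trmt61a, a tRNA methyltransferase (-1.32). None of these 10 passed without the block. At 23 of the falls the romidepsin mean was under detection. Falls from a control mean above that level were ranked with the same rules on overlap and names. Among them Dtwd2, a tRNA-modifying enzyme, had the largest fall against that level, at least 2.30-fold. For Spata5l1, Kdm8, Niban3, Gpr34 and Srcap the same bound was between 1.17-fold and 1.58-fold.

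Gene groups were described through 36 lists, read against the background shares of 9.04% rising and 8.12% falling. The list of actin and membrane-shaping genes had the highest median log2 change, 1.17 (1.56 in replicate 1, 1.09 in replicate 2, against -0.02 over all tested genes), and all 21 tested members had a change above 0. Of these 13 rose (61.9%) and none fell. Members of all 36 lists were chosen with earlier results of these data known. Several members of this list and of the neuronal and redox lists had been picked from these same arrays. The list counts are thus no independent evidence of a direction. Beside Marcks, Fscn1 and Myh10, Fnbp1l, which couples membrane curvature to actin, rose at least 3.21-fold and Wasf1, a WAVE-complex subunit, at least 2.31-fold. Gsn, the actin-severing protein gelsolin, was at 9.13 and 10.21 in the control and at 11.36 and 11.52 with romidepsin, a rise of 1.77 ± 0.23 (adjusted p = 0.000192). Vim, the intermediate filament protein vimentin, was at 13.44 and 11.08 in the control and at 14.35 and 12.18 with romidepsin. Its groups overlap, and within the pairs it rose by 1.00 ± 0.20 (adjusted p = 0.00394). Anxa1, Myo6, Pls1, Tpm2, Marcksl1 and Cnn3 rose as well, with fitted changes of 0.71 to 2.09, the first 4 of them from a control mean under detection. The list had 8 rises without romidepsin replicate 1 and 6 without the block.

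**Figure D3:**
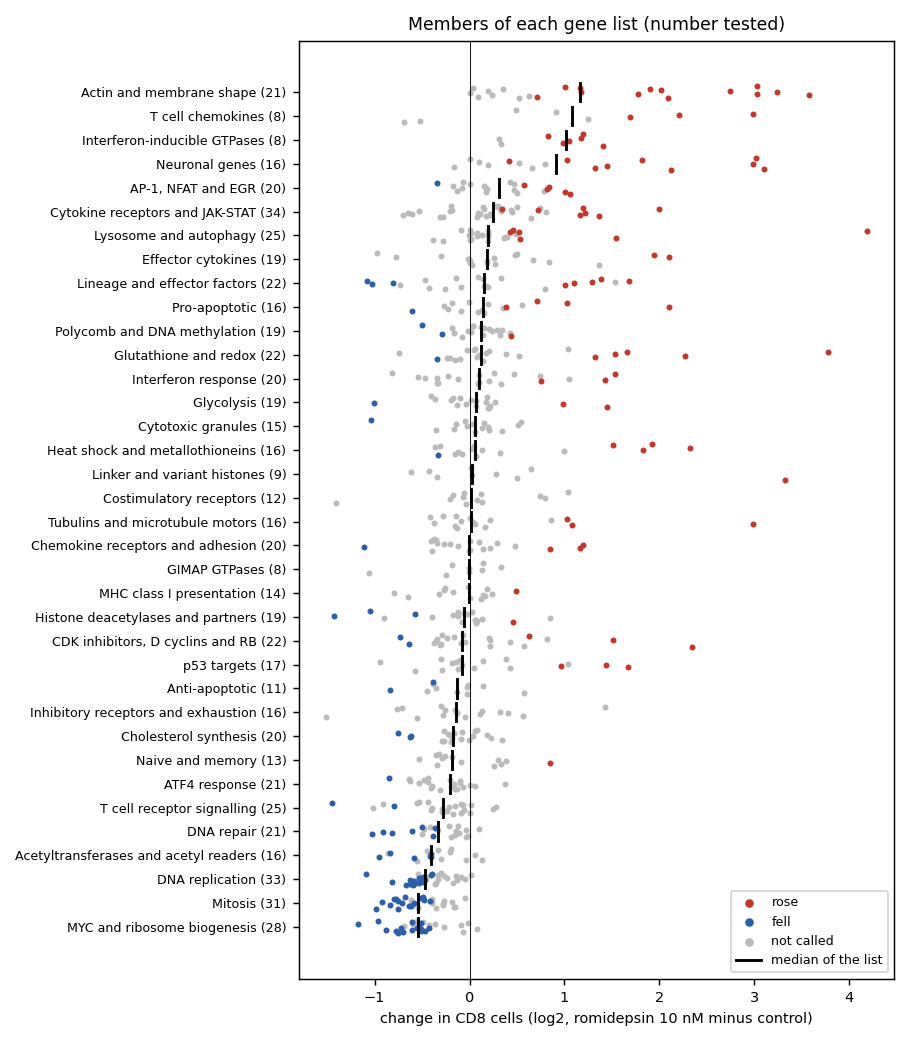
Log2 change in CD8 cells (x axis, romidepsin 10 nM minus control) of every tested member of 36 gene lists, ordered by list median (black bar), with the number tested in parentheses; red points rose, blue points fell and grey points were not called. Actin and membrane-shaping genes, T cell chemokines, interferon-inducible GTPases and neuronal genes lie at the top, with medians of 1.17, 1.08, 1.02 and 0.91, and ribosome biogenesis, mitosis and DNA replication genes lie at the bottom, with medians of -0.54, -0.54 and -0.47.

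Genes best known from neurons also rose: 9 of 16 passed upward (56.2%) and none downward, with a median of 0.91. Bex1, an adaptor protein expressed in the nervous system, was at 10.47 and 11.38 in the control and at 13.30 and 12.80 with romidepsin, a rise of 2.12 ± 0.38 (adjusted p = 0.00216). Syt11, a synaptotagmin of vesicle traffic, went from 6.88 and 6.17 to 8.54 and 8.14, a rise of 1.81 ± 0.16 (adjusted p = 7.38e-06). Neither gene had overlapping groups. Bex2 rose at least 3.06-fold and the ubiquitin hydrolase Uchl1 at least 2.86-fold, both from under detection, and Eno2, Crmp1, Tubb2b and Stx1a rose by 0.42 to 1.45. The neuronal tubulin Tubb3 stayed at the floor of the arrays, at 2.48 and 2.29 in both groups. Without romidepsin replicate 1 the list had 4 rises, without control replicate 1 it had 5 and without the block 4.

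Interferon-inducible GTPases, which attack the vacuoles of intracellular pathogens, had 6 rises among 8 tested (75.0%) and a median of 1.02 (0.92 and 0.93 in the replicates). Gbp7 was at 11.53 and 11.46 in the control and at 12.61 and 12.48 with romidepsin, a rise of 1.04 ± 0.11 (adjusted p = 3.46e-05). Igtp, an immunity-related GTPase, was at 11.53 and 11.59 in the control and at 12.92 and 12.55 with romidepsin and rose by 1.18 ± 0.15 (adjusted p = 0.000173). These 2 also passed without the block. Gbp2 went from 10.06 and 10.35 to 11.81 and 11.41 and rose by 1.40 ± 0.38 (adjusted p = 0.0222). Irgm2 went from 9.14 and 9.93 to 10.65 and 10.81 and rose by 1.20 ± 0.29 (adjusted p = 0.0122). Gbp6 and Irgm1 rose by 0.99 and 0.82, and none of these 6 had overlapping groups. Gbp3 (0.33, adjusted p = 0.135) and Ifi47 (0.31, adjusted p = 0.0596) did not pass. Leaving out romidepsin replicate 1, romidepsin replicate 2 or control replicate 1 gave 3 rises each. Several of these GTPases have close paralogs, so a probe set can take up signal from a relative.

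The windows of 250 bases before the GTPase genes share a sequence feature. A pair of GAAA motifs with any 2 bases between them, as in the core of the interferon-stimulated response element, occurs on either strand in 6 of 7 matched windows of the list (85.7%), against 2.54% of the tested genes and 3.04% of all windows. Among genes that rose the share was 2.25% and among genes that fell 1.95%. The windows of Igtp (chr11:58199306-58199555, plus strand), Irgm2 (chr11:58214727-58214976, plus strand), Gbp2 (chr3:142620413-142620662, plus strand) and Ifit1 (chr19:34640639-34640888, plus strand), in GRCm38.p6 from RefSeq, are shown with the match in capitals, which reads as a pair of TTTC motifs where it lies on the other strand. The matches begin 34, 64 and 59 bases before the start in Igtp, Irgm2 and Gbp2, and 104 and 85 bases before it in Ifit1. The windows of Igtp and Irgm2, which lie near each other on chromosome 11, share a run of 55 identical bases. A match is a description of the letters and says nothing of binding.
Igtp: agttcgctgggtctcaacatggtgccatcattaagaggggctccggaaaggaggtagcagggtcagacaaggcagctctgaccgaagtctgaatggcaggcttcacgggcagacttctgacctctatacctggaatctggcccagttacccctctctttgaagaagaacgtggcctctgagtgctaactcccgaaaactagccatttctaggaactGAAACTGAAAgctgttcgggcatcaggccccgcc
Irgm2: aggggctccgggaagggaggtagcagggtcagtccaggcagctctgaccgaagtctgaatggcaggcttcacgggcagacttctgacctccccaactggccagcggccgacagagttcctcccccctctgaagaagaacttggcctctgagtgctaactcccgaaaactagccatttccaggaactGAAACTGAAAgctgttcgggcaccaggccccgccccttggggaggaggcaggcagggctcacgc
Gbp2: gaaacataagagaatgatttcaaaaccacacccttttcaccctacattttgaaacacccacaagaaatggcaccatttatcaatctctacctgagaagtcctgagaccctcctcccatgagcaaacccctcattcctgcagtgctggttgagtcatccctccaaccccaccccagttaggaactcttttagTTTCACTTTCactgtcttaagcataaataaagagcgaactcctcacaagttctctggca
Ifit1: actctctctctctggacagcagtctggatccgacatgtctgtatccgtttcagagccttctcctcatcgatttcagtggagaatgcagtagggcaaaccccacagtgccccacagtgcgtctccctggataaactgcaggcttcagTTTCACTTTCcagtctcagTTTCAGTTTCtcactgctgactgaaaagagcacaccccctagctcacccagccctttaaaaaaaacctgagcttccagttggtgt

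In the wider interferon response, 3 of 20 tested members rose (15.0%), none fell, and the median change was 0.10. Usp18, the protease that removes ISG15, was at 5.12 and 5.39 in the control and at 6.52 and 7.06 with romidepsin, with no overlap and a rise of 1.53 ± 0.19 (adjusted p = 0.000112). Ifih1, the RNA sensor MDA5, rose by 0.75 ± 0.24 (adjusted p = 0.0397), and Ifit1, an RNA-binding effector, passed (adjusted p = 0.0375) with both group means under detection. Without control replicate 1 and without control replicate 2 there was 1 call each, without romidepsin replicate 2 also 1, and with no filter 1.

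Secreted signals of CD8 T cells changed at a few genes. Of 8 T cell chemokines 3 rose (37.5%), with a list median of 1.08. Ccl5, a chemokine that draws in T cells, was at 8.73 and 8.92 in the control and at 12.29 and 9.76 with romidepsin. Both romidepsin arrays were above both controls, replicate 1 far more so, and the change was 2.21 ± 0.49 (adjusted p = 0.00846). Ccl4, a chemokine made by activated CD8 cells, rose by 1.70 ± 0.51 (adjusted p = 0.035), from 10.30 and 10.63 to 12.72 and 11.60. Ccl9 rose by 2.98 ± 0.58 (adjusted p = 0.00392) with overlapping groups, since it was at 5.73 in control replicate 1 and at 5.39 in romidepsin replicate 2. Of 19 effector cytokines 2 rose (10.5%, a share near the 9.04% of all tested genes), both of the TNF family. Lta, lymphotoxin alpha, went from 9.0 and 7.91 to 11.87 and 9.24 (2.10 ± 0.45, adjusted p = 0.00649), and Tnf went from 6.45 and 6.72 to 9.19 and 7.86 (1.94 ± 0.42, adjusted p = 0.00674). None of these 5 genes passed without the block. The chemokine list had no call without romidepsin replicate 1 and 1 without control replicate 1, and the cytokine list had none without either.

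Cytokine receptors and the JAK-STAT pathway, through which interleukins and interferons signal, had 7 rises among 34 genes (20.6%) and no fall. Socs2, a feedback inhibitor induced by STAT5, was at 6.72 and 5.88 in the control and at 8.87 and 7.72 with romidepsin, a rise of 1.99 ± 0.27 (adjusted p = 0.000352) with no overlap. Il2ra, the alpha chain of the interleukin 2 receptor, went from 9.45 and 8.81 to 10.79 and 9.91 and rose by 1.22 ± 0.33 (adjusted p = 0.02). Socs3, the feedback inhibitor of STAT3 signalling, went from 7.68 and 8.16 to 8.89 and 9.34, a rise of 1.20 ± 0.25 (adjusted p = 0.00617), and was the one member that also passed without the block. Ifngr2, Il12rb1, Jak2 and Pim2 rose by 0.34 to 1.36. The count was 2 without romidepsin replicate 1, 1 without control replicate 1 and 4 without control replicate 2.

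Among 22 lineage and effector transcription factors, 5 rose (22.7%) and 3 fell (13.6%). Tbx21, which encodes T-bet, went from 9.12 and 8.87 to 10.71 and 10.05, a rise of 1.38 ± 0.25 (adjusted p = 0.00255). Irf4, which sustains effector expansion, went from 10.39 and 10.35 to 11.79 and 11.16 and rose by 1.10 ± 0.16 (adjusted p = 0.000603), also without the block. Irf8, a partner of such factors, was at 12.25 or lower in the control and at 13.71 and 13.11 with romidepsin and rose by 1.29 ± 0.23 (adjusted p = 0.00238). In each of these both romidepsin arrays were above both controls. Prdm1, the effector regulator Blimp-1, rose at least 1.44-fold from under detection, and Id2, an inhibitor of E proteins, rose by 1.01. The falls were those of Myb, a factor of stem-like T cells (-1.08), and of the Ikaros family members Ikzf2 (-1.02) and Ikzf3 (-0.81), each with overlapping groups. With a random replicate block, whose correlation was estimated, Myb (adjusted p = 0.0631) and Ikzf3 (adjusted p = 0.0529) were not called, and with CD8 arrays alone no fall was. Of 20 AP-1, NFAT and EGR genes, 5 rose (25.0%) and 1 fell. Egr2 rose by 1.01, Nfatc2 by 0.84, Jun by 0.82, the NF-kappaB inhibitor Nfkbia by 0.57 and Atf3 by 1.05, while the NF-kappaB subunit Rela fell by 0.34. Without romidepsin replicate 1 the lineage list had 1 call and without control replicate 1 it had 2, and the AP-1, NFAT and EGR list had none in either case. With no filter on low values the lineage list had 3 rises and 1 fall, and the AP-1 list 3 rises and 1 fall.

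Lists of killing genes and of receptors are read against 9.04% of all tested genes rising and 8.12% falling. These lists are short, so a low count of calls in them is a description only. Of 15 cytotoxic granule genes, 1 fell (6.67%, a share near that of all tested genes), Unc13d, the Munc13-4 protein needed for granule release. It went from 8.18 and 8.11 to 6.76 and 7.44 (-1.04 ± 0.22, adjusted p = 0.00593). Chosen after their values were seen, the granule proteins Gzmb and Prf1 and the cytokine Ifng had changes of 0.21 (95% interval -0.61 to 1.03), 0.52 (-0.99 to 2.02) and 0.27 (-0.57 to 1.10). None of the 3 passed, and the intervals leave room for changes of 2-fold. None of 16 inhibitory receptor and exhaustion genes passed by limma, with or without the block, and 1 had an unadjusted p under 0.05. In that list, and also chosen after their values were seen, Pdcd1, the PD-1 receptor, had a fitted difference of -0.76 (-1.81 to 0.29), Tox of -0.71 (-1.43 to 0.01) and Lag3 of 0.32 (-0.26 to 0.90). Of 12 costimulatory receptors none passed either by limma, with 4 at an unadjusted p under 0.05. With the beta-actin ratio as a covariate 1 gene of the inhibitory list and 3 of the costimulatory list rose. The T cell receptor signalling list had 2 falls among 25 genes (8.0%, again near that share), Ubash3a and Prkcq (-0.80), and a median of -0.28. Neither of these was called without either replicate 1 array, nor was Unc13d, and the receptor list had no call without romidepsin replicate 2 or with no filter, and 1 with CD8 arrays alone or with the covariate. Among 20 chemokine receptors and adhesion molecules, Icam1 (1.20), Cd69 (1.16) and Cd44 (0.85) rose (15%) and Cxcr4 (-1.11) fell (5%). The fall of Cxcr4 was not called with a random replicate block (adjusted p = 0.0595), under either other scaling, with no filter, with the covariate or with CD8 arrays alone. In this list 1 rise was called without control replicate 1 and none without romidepsin replicate 1.

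Lists for growth, replication and repair had falls at 33.3% to 57.1% of their genes and no rises. In the list for MYC and ribosome biogenesis, 16 of 28 fell (57.1%), none rose and 27 had a change below 0, with a median of -0.54. Polr1b, a core subunit of RNA polymerase I, went from 7.21 and 7.04 to 5.59 and 6.32, a fall of 1.18 ± 0.27 (adjusted p = 0.00941). Utp20, of the small subunit processome, fell by 0.96 ± 0.14 (adjusted p = 0.000623), from 8.46 and 8.74 to 7.24 and 8.04. Gnl3, the nucleolar protein nucleostemin, and Gar1, a snoRNP protein, fell by 0.88 and 0.78, while Myc itself was at 10.42 and 11.56 in the control and at 10.46 and 11.68 with romidepsin (0.08, adjusted p = 0.903). Of 33 DNA replication genes 16 fell (48.5%) and none rose, with a median of -0.47. Tk1, the thymidine kinase of S phase, fell by 1.09, Cdc45 and Gins1, of the replicative helicase, by 0.67 and 0.62, and Mcm5 by 0.63. DNA repair genes gave 7 falls among 21 (33.3%), with a median of -0.34, among them the checkpoint kinase Chek1 (-1.03), Fancd2 (-0.60) and Rad51ap1 (-0.36). None of these falls passed without the block. Without romidepsin replicate 1 the ribosome list had 2 falls and without control replicate 1 it had 3, and the replication and repair lists had none in either case. Without romidepsin replicate 2 the 3 lists had 8, 6 and 2 falls, and with no filter 7, 10 and 2. With a random replicate block they had 16, 11 and 4, and Tk1 (adjusted p = 0.0574) and Rad51ap1 (adjusted p = 0.0645) were among those not called. With CD8 arrays alone the replication list had 10 falls and the repair list 2.

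All 31 mitosis genes had a change below 0 and 16 fell (51.6%), with a median of -0.54 (-0.76 in replicate 1, -0.38 in replicate 2). Cdc20, the activator of the anaphase-promoting complex, was at 12.16 and 12.15 in the control and at 11.03 and 11.60 with romidepsin and fell by 0.84 ± 0.16 (adjusted p = 0.00334). Plk1, the polo-like kinase, was at 9.69 and 9.56 in the control and at 8.75 and 8.90 with romidepsin and fell by 0.80 ± 0.22 (adjusted p = 0.0235). In both the groups did not overlap. Anln and Kif20a, of cytokinesis, fell by 0.98 and 0.92, and the proliferation antigen Mki67 (-0.61, adjusted p = 0.14) and the topoisomerase Top2a (-0.04, adjusted p = 0.858) did not pass. No mitosis gene passed without the block, without romidepsin replicate 1 or without control replicate 1, and 9 fell without romidepsin replicate 2. Falls numbered 10 with a random replicate block, where the calls lost had adjusted p from 0.0528 to 0.0941, 10 with no filter and 8 with CD8 arrays alone. The CCAAT box, searched as CCAAT on both strands, was in 20 of 26 matched windows of this list (76.9%), against 37.2% of tested genes, 40.0% of genes that fell and 37.7% of genes that rose. The windows of Cdc20 (chr4:118437344-118437593, minus strand) and Plk1 (chr7:122159185-122159434, plus strand; GRCm38.p6, RefSeq), chosen after the values were seen, are shown with the box in capitals. It begins 53 and 8 bases before the start of Cdc20 and 14 bases before that of Plk1.
Cdc20: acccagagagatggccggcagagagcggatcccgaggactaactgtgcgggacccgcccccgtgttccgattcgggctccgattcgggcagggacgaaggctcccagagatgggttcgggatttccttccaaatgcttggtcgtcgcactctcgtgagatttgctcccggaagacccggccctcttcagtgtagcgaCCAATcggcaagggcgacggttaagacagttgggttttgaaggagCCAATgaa
Plk1: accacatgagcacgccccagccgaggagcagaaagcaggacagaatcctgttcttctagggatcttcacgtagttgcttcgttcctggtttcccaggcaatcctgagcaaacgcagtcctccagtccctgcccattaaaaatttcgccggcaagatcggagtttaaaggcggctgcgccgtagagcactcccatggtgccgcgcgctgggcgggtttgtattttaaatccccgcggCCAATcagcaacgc

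Genes for histone acetylation were called in part. Of 19 histone deacetylase genes and partners 4 passed (21.1%, against 17.2% of all tested genes), 1 upward (5.26%) and 3 downward (15.8%). Hdac1, a direct target of romidepsin, rose from 11.03 and 11.05 to 11.60 and 11.40 (0.46 ± 0.11, adjusted p = 0.0133). Mbd3, the NAD-dependent deacetylase Sirt1 (-1.05) and the NuRD subunit Mta2 (-0.58) fell. Hdac2 (0.08, 95% interval -0.15 to 0.32) and Hdac3 (0.06, -0.12 to 0.24), which are class I targets too and were chosen after their values were seen, did not pass. On the other side of the balance, 6 of 16 acetyltransferases and acetyl readers fell (37.5%) and none rose, with a median of -0.41. Crebbp, the acetyltransferase CBP, went from 10.20 and 10.31 to 8.90 and 9.69, and all 3 of its detected probe sets fell. Its change was -0.96 ± 0.13 (adjusted p = 0.000242). Kat5, Brd8, Ep300, Brd9 and Kat2a fell by 0.41 to 0.83. Of 19 Polycomb and DNA methylation genes 1 rose (5.26%) and 2 fell (10.5%), shares near those of all tested genes. Cbx2 rose by 0.44, and Uhrf1 and Dnmt1, which maintain DNA methylation, fell by 0.51 and 0.29. With a random replicate block Mta2 (adjusted p = 0.0631), Kat2a (adjusted p = 0.0768) and Dnmt1 (adjusted p = 0.161) were not called, and with CD8 arrays alone the Polycomb list had no call. Leaving out romidepsin replicate 1 or control replicate 1 gave 1 call in the acetyltransferase list and none in the deacetylase and Polycomb lists, and none of the 3 lists had a call without the block. Without romidepsin replicate 2 the deacetylase list had 2 calls, and without control replicate 2 the Polycomb list had 1.

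Cell cycle inhibitors and death genes changed at single members. Ccnd1, cyclin D1, rose at least 4.14-fold from under detection, from 3.79 and 4.16 to 6.70 and 5.93 (adjusted p = 0.00125), also without the block. Cdkn1c, the inhibitor p57, rose at least 1.29-fold, and Rb1, the retinoblastoma protein, by 0.63. The phosphatase Cdc25a and E2f2 fell by 0.63 and 0.73. Of the 22 genes of the cell cycle inhibitor list 3 rose (13.6%) and 2 fell (9.09%). Cdkn1a, the inhibitor p21 that histone deacetylase inhibitors are known to induce, was at 10.00 and 9.90 in the control and at 10.76 and 9.98 with romidepsin (0.42, 95% interval -0.12 to 0.97; adjusted p = 0.282). It was singled out after its values were seen. In the p53 target list 3 of 17 genes rose (17.6%) and none fell, with a list median of -0.08. The rises were all of 1 family, the stress sensors Gadd45a (1.67), Gadd45g (1.44) and Gadd45b (0.97), and a part of p53 in them was not tested. The count of this list was 1 with no filter and 1 with CD8 arrays alone. Of 16 pro-apoptotic genes 4 rose (25.0%) and Bak1 fell (-0.61), the latter not with a random replicate block (adjusted p = 0.057). Bmf, a BH3-only protein linked to the cytoskeleton, went from 5.02 and 5.33 to 7.36 and 7.20, with no overlap and a rise of 2.10 ± 0.31 (adjusted p = 0.00058) that also passed without the block. The death receptor Fas rose by 1.02, Pmaip1 by 0.71 and Bnip3 by 0.38. Of 11 anti-apoptotic genes Birc3 (-0.83) and Xiap (-0.38) fell (18.2%), Xiap not with the random block (adjusted p = 0.0624). Without romidepsin replicate 1, 1 gene each was called in the cell cycle inhibitor and pro-apoptotic lists and none in the p53 target and anti-apoptotic lists, and without control replicate 1 these counts were 1, 2, 0 and 0. The pro-apoptotic list had 3 calls without romidepsin replicate 2, 3 without control replicate 2 and 2 with no filter.

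Stress and redox genes rose in part. Of 16 heat shock and metallothionein genes 4 rose (25.0%) and the cochaperone Dnaja1 fell (-0.33), though not with a random replicate block (adjusted p = 0.0512). Mt2, a metal-binding metallothionein, went from 7.51 and 8.58 to 10.16 and 9.79, a rise of 1.93 ± 0.34 (adjusted p = 0.00196), and Mt1 went from 8.22 and 8.70 to 10.32 and 9.62 (1.51 ± 0.26, adjusted p = 0.00171). Hspb1, a small heat shock protein, rose at least 1.50-fold from under detection, and Hspa1b, an inducible HSP70 whose sequence nearly matches that of Hspa1a, by 1.83. Mt1, Mt2 and Hspb1 also passed without the block. In the glutathione and redox list 5 of 22 rose (22.7%) and Gpx1 fell (-0.35), again not with the random block (adjusted p = 0.074). Selenom, Gstm5 (at least 3.33-fold) and Mgst3, from 8.31 and 8.61 to 10.41 and 9.84 (1.66 ± 0.28, adjusted p = 0.00148), led these rises, and Gstt1 and Gsta4 rose by 1.53 and 1.32. In the lysosome and autophagy list 6 of 25 rose (24.0%). The protease Ctsl, cathepsin L, went from 7.66 and 8.16 to 9.54 and 9.36, a rise of 1.54 ± 0.20 (adjusted p = 0.000171) with no overlap. Beside Npl, the rises of Ctsb, Npc2, Sqstm1 and Npc1 were between 0.43 and 0.53. Without romidepsin replicate 1 each of these 3 lists had 2 rises, and without control replicate 1 they had 2, 4 and 2.

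CD4 T cells of the same series, with their own stimulated control, show which changes differed between the cell types. In CD4 cells 10 nM romidepsin changed 4761 genes (48.2%), 2591 up (26.2%) and 2170 down (22.0%). Of the 893 genes that rose in CD8 cells 669 also rose in CD4 cells, with a median CD4 change of 0.92, and of the 802 that fell 567 also fell there, with a median of -0.58. The difference between the responses was called at 827 genes (8.38%), with the CD8 change above the CD4 change at 353 (3.58%) and below it at 474 (4.80%). It was called at 168 of the CD8 rises, at 84 of which the CD8 rise was the larger one, and at 46 of the CD8 falls. Opposite calls were found at 21 CD8 rises and 4 CD8 falls. At all 25 of them the difference itself was called, which opposite calls from the same fit nearly imply, so this adds no separate evidence. Without the block 7 differences passed (0.0709%). The count was 281 without CD8 romidepsin replicate 1, 364 without CD8 romidepsin replicate 2, 357 without CD8 control replicate 1 and 265 without CD8 control replicate 2. It was 111 without CD4 romidepsin replicate 1, 1330 without CD4 romidepsin replicate 2 and 155 without CD4 control replicate 1.

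**Figure D4:**
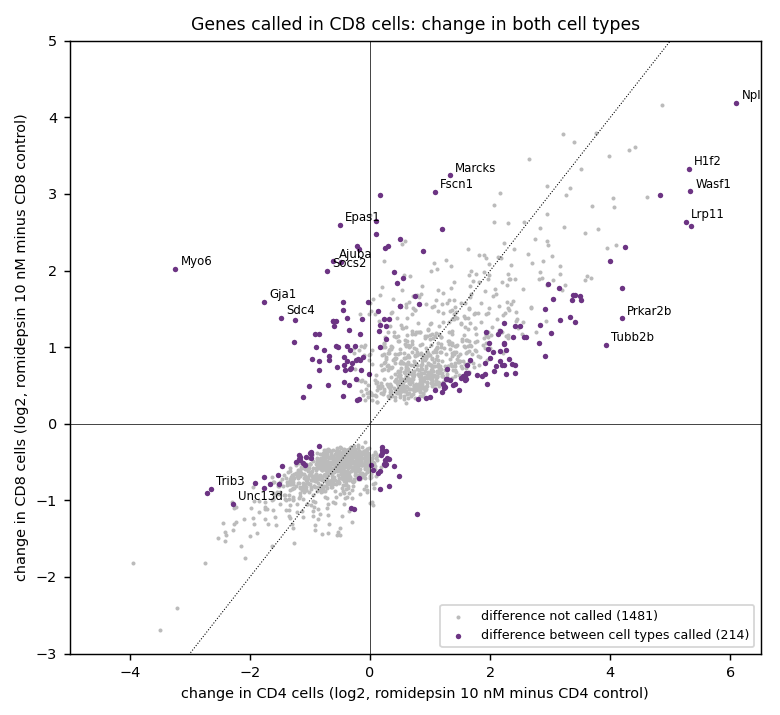
Log2 change with 10 nM romidepsin in CD4 cells (x axis) and CD8 cells (y axis), each against its own control, for the 1695 genes called in CD8 cells. Purple points are genes whose difference between the cell types was called, grey points the others, and the dotted line marks equal changes; Myo6 lies at the far left with a fitted change of -3.24 in CD4 cells and 2.02 in CD8 cells.

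Myo6, an actin motor that walks toward the minus end, rose in CD8 cells from 2.77 and 2.52 to 4.71 and 4.63, at least 1.32-fold against the detection level. In CD4 cells it started high, at 11.06 and 11.70, and fell to 7.28 and 9.0. With the CD8 control set to the detection level the difference was at least 3.65 (adjusted p of the fit = 0.000165). Gja1, the gap junction protein connexin 43, rose in CD8 cells from 3.40 and 3.36 to 5.08 and 4.86 and fell in CD4 cells from 12.25 and 10.46 to 9.93 and 9.24 (difference at least 2.48, adjusted p = 0.00249). Sdc4, the heparan sulfate proteoglycan syndecan-4, rose in CD8 cells from 7.43 and 6.38 to 8.72 and 7.85 and fell in CD4 cells from 8.82 and 8.95 to 6.91 and 7.88 (difference 2.87 ± 0.37, adjusted p = 0.000881). In each case the level in the CD4 control was above that in the CD8 control. Epas1, the hypoxia factor HIF-2 alpha, and Ajuba, a LIM protein, rose in CD8 cells and had changes of -0.50 and -0.62 in CD4 cells that did not pass. Their CD8 controls were under detection too, and the differences were at least 2.03 and 1.08. Socs2 and Il2ra rose in CD8 cells and had CD4 changes of -0.72 and -0.35 (differences 2.72 and 1.57).

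By fitted value, the genes whose CD8 rise was most below that in CD4 cells were Tubb2b, Prkar2b, Iigp1, Lrp11 and Apcdd1. Tubb2b, a beta-tubulin of developing neurons, rose in CD8 cells from 9.88 and 10.28 to 11.45 and 10.77 and in CD4 cells from 6.54 and 6.0 to 10.75 and 9.65, a difference of -2.90 ± 0.43 (adjusted p = 0.00196). Iigp1, an immunity-related GTPase outside the list above, rose in CD8 cells from 8.73 and 8.95 to 11.57 and 11.28 and in CD4 cells from 6.80 and 6.48 to 12.92 and 11.06, a difference of -2.77 ± 0.63 (adjusted p = 0.0176). For both, the CD4 control was the lower one. Prkar2b, a regulatory subunit of protein kinase A, differed by -2.81. The difference of Lrp11 was at least 1.72 in size, since its CD4 control was under detection, and that of Apcdd1, a Wnt inhibitor, has no bound, since both controls were. List counts in the 2 cell types are given beside shares over all tested genes of 8.12% falling in CD8 cells, 22.0% falling in CD4 cells and 8.38% differing. T cell receptor signalling genes had 2 falls among 25 in CD8 cells and 18 in CD4 cells (72.0%), with 2 differences called (8.0%, a share near that of all genes). ATF4 response genes had 1 fall among 21, that of the pseudokinase Trib3 (-0.85), against 19 (90.5%), with 5 differences called (23.8%). The fall of Trib3 was not called with no filter, with the covariate or with CD8 arrays alone. GIMAP GTPases, which support lymphocyte survival, had none among 8 by limma (1 at an unadjusted p under 0.05) against 7 (87.5%), with 1 difference called (12.5%), and anti-apoptotic genes 2 among 11 against 10 (90.9%), with 4 differences called (36.4%).

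By the number of called genes, the 10 nM response lay between those to 2 nM and 30 nM. Not every list followed the order of the doses. At 2, 10 and 30 nM the mitosis list had median changes of -0.07, -0.54 and -1.10. The cytokine receptor and JAK-STAT list had medians of 0.07, 0.24 and -0.14. At 2 nM limma called no gene (0%) with or without the block. An unadjusted p under 0.05 was found at 229 of the 9874 tested genes, a share below 0.05 itself. At 30 nM it called 5175 (52.4%), 2745 up (27.8%) and 2430 down (24.6%). These comparisons share the control arrays with that at 10 nM, so their values are given side by side only. The 893 genes that rose at 10 nM had median changes of 0.22 at 2 nM and 1.32 at 30 nM, and 865 of them were called upward at 30 nM. The 802 that fell had medians of -0.13 and -0.86, and 745 were called downward at 30 nM. The step from 2 to 10 nM, which leaves the controls out but shares the 10 nM arrays with the main comparison, was called at 521 genes (5.28%), 327 up (3.31%) and 194 down (1.96%). Without the block 21 passed (0.213%), all up. The count was 40 without the 10 nM replicate 1, 84 without the 2 nM replicate 1 and 238 without the 2 nM replicate 2.

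**Figure D5:**
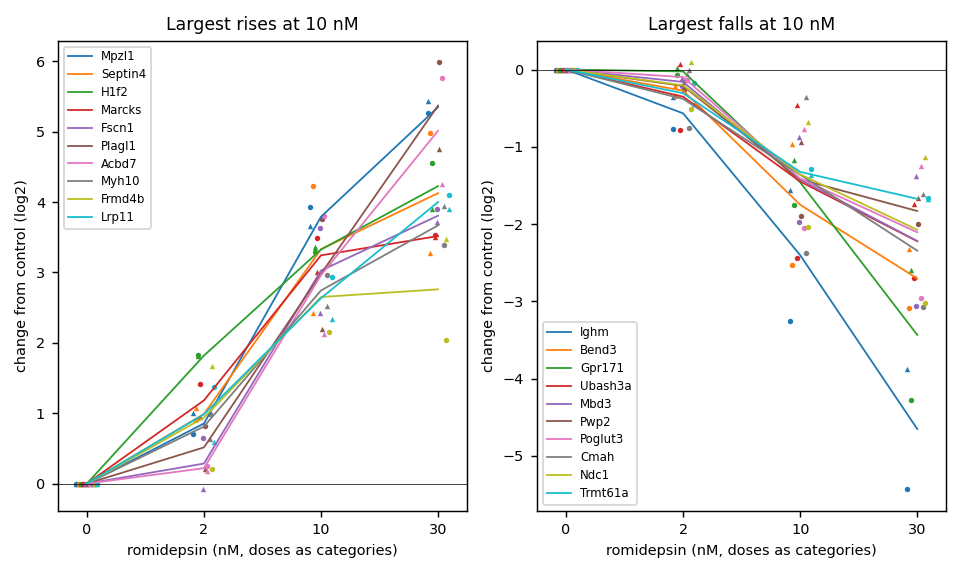
Change from control (y axis, log2) in CD8 cells at 2, 10 and 30 nM romidepsin (x axis, doses as equally spaced categories). The 10 largest rises at 10 nM are on the left and the 10 largest falls on the right, among genes detected in both groups and without overlap at 10 nM. Lines join the means of the replicate pairs, circles are replicate 1 and triangles replicate 2, and all doses share the 2 control arrays. Mpzl1 had changes of 0.85, 3.79 and 5.35 at the 3 doses and Ighm of -0.57, -2.40 and -4.65.

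Several genes were under detection at 2 nM and well above it at 10 nM. Abhd3, a phospholipase, was at 2.69 and 2.61 at 2 nM, at 7.28 and 5.60 at 10 nM and at 8.83 and 7.62 at 30 nM. With the 2 nM mean set to the detection level, the step from 2 to 10 nM was at least 2.18 on the log2 scale (adjusted p of the fit = 0.000268). Fnbp1l was at 2.42 and 2.45 at 2 nM, as low as in the control, at 6.56 and 5.34 at 10 nM and at 8.21 and 7.10 at 30 nM. Pawr, the apoptosis regulator Par-4, was at 3.23 and 2.41 at 2 nM, at 6.73 and 5.07 at 10 nM and at 7.28 and 6.14 at 30 nM. Replicate 1 was the higher array of each of these genes at 10 and 30 nM. The step of Npl was 3.63, and that of Dmxl2 was at least 2.67. Downward, Tacc2, Bend3, Gpr171, Sephs1 and Rbm19 had steps of -1.59 to -1.40. Gpr171 was at 10.34 and 10.66 at 2 nM, at 8.66 and 9.47 at 10 nM and at 6.14 and 8.05 at 30 nM. H1f2 had a difference from control of 1.82 at 2 nM that did not pass (adjusted p = 0.277), and rose by 3.33 at 10 nM and 4.22 at 30 nM. The actin and membrane list had 11 of 21 steps called upward (52.4%), the neuronal list 7 of 16 (43.8%) and the interferon-inducible GTPases 5 of 8 (62.5%), against 3.31% of all tested genes, the first 2 lists having members picked from these arrays. The mitosis list had 2 of 31 called downward (6.45%), against 1.96%.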

How the data were processed

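Probe set signals of 28 mouse arrays were deposited as 1 table of log2 values that the authors had computed with GCRMA, per the submitters' processing notes; its version is not given in the sources used here, and the log2 base was judged from the range of the values. Of 45101 probe sets, 34945 named 1 gene in the platform annotation; probe sets naming several genes (932), none (9160) or a control (64) were left out. The detection level of 4.27 lies 2 log2 units above the most frequent value of the table. limma 3.58.1 in R 4.3.3 fitted all 14 groups together. Replicate numbers entered as a separate block for CD4 and CD8 arrays, which left 12 residual degrees of freedom, and p-values were adjusted by Benjamini-Hochberg over all 9874 tested genes at 0.05. The labels do not say what a replicate number marks. The pairing by replicate number was set in advance. Deviations of replicate 1 arrays from their group means correlated between CD8 groups, with r of 0.768 to 0.958 across genes. In data simulated for the comparison of 10 nM romidepsin with control over 9874 genes, 78.2% of changes of 2-fold were found with the block and 9.60% without it. For 4-fold changes these shares were 95.6% and 42.4%, and for 8-fold changes 100% and 72.8%. The block made 43 false calls among 48370 unchanged genes and the fit without it 0. These data were drawn from the fitted model with the block, with the same change in both replicates. In the arrays themselves replicate 1 moved more in 1424 of the 1695 called genes. The simulation thus favours the block by its making and cannot show which fit suits the arrays.

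Changes are ± SE. A change from or to a mean under detection is a bound against that level. Genes were named by size of change among called genes with non-overlapping groups, up to 4 per list, with exceptions said to be chosen after their values were seen or given to complete a small count. Members and lists were chosen with earlier results of these data known. Promoter windows came from RefSeq tables. Alternatives left out the block, each array and the filter, or changed the scaling, the probe set rule and the arrays fitted. The number of arrays limits the precision.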

Additional observations from a re-analysis of the deposited data

Results flagged for a closer look

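At 32 of the genes named above, a test of the difference between the cell types found that the response to 10 nM romidepsin in CD8 cells was not that in CD4 cells. Values are the CD8 change minus the CD4 change on the log2 scale, by limma with the replicate block and an adjusted p under 0.05 over all tested genes, in a comparison where 8.38% of genes passed.

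The CD8 change was above the CD4 change at 18 genes. In order of the fitted value these were the actin motor Myo6 (5.26), the connexin Gja1 (3.36), the hypoxia factor Epas1 (3.10), the syndecan Sdc4 (2.87), the LIM protein Ajuba (2.74), the STAT5-induced inhibitor Socs2 (2.72) and the scaffold Frmd4b (2.55). Where the CD8 control mean was under detection the fitted value is no measure of size, and the difference was at least 3.65 for Myo6, 2.48 for Gja1, 2.03 for Epas1 and 1.08 for Ajuba. The small heat shock protein Hspb1 (2.03), fascin, Fscn1 (1.96), Marcks (1.91) and the pseudokinase Trib3 (1.80) followed. For receptors the differences were 1.57 at Il2ra and 1.50 at Ifngr2, and for the granule release gene Unc13d 1.24. For the transcription factors Jun, Nfatc2 and Irf4 they were 1.21, 1.04 and 0.83, and for Usp18 1.03. At Unc13d and Trib3, which fell in both cell types, a positive value means a smaller fall in CD8 cells.

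The CD8 change was below the CD4 change at 14 genes. The tubulin Tubb2b (-2.90), the kinase subunit Prkar2b (-2.81), the GTPase Iigp1 (-2.77), the receptor-like Lrp11 (-2.62), the Wnt inhibitor Apcdd1 (-2.41) and the WAVE subunit Wasf1 (-2.30) had the largest fitted differences. Those of the linker histone H1f2, the lyase Npl, Bex1, the kinesin Kif5c and the glutathione transferase Mgst3 were -1.98, -1.90, -1.87, -1.84 and -1.84. The factor Irf8, the chaperone Hspa1b and Niban3 differed by -1.54, -1.13 and -0.84. With means under detection set to that level, the difference of Lrp11 was at least 1.72 in size. Those of Apcdd1, Wasf1, Npl, Kif5c, Niban3 and, above, Hspb1 have no bound, because means on both sides of the comparison were under detection. At the 14 genes but Niban3, the gene rose in both cell types, and by fitted value it rose less in CD8 cells. For Apcdd1, Wasf1, Npl and Kif5c the fitted value is no measure of size. That of Kif5c went to -0.52 with its control means set to the detection level.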

How the results depend on the processing

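No gene picked by the naming rule changed direction under any alternative it was run in (at most 135 values per alternative, with genes named outside the rule not included). The 3 counts moved as follows. Without the replicate block, the comparison with control gave 111 genes in place of 1695, the cell type difference 7 in place of 827 and the step from 2 to 10 nM 21 in place of 521. Leaving out 1 array at a time gave 252 to 1382, 111 to 1330 and 40 to 494. With no filter on low values the cell type difference gave 427 and the step 247. Fitted to the 8 arrays of its 4 groups alone, the cell type difference gave 0 by limma, with 1906 genes at an unadjusted p under 0.05. The step gave 255 with CD8 arrays alone and 844 with the beta-actin ratio as a covariate beside the replicate block. The cause was not tested. The other alternatives stayed within 1.5 times. Among the 115 genes named for the comparison with control, 26 passed under every alternative, and 73 under each one that kept all arrays and the pairing. The median change of 26 of 38 lists, cell type markers included, kept 1 sign throughout. The median half-width of a 95% interval was 0.353 log2 units with the block and 0.975 without it, and 0.5 for the cell type difference, so smaller differences were mostly out of reach.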

Other observations

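The lists not described above are read against 9.04% of all tested genes rising and 8.12% falling. Of 20 cholesterol synthesis genes 3 fell (15.0%), the desaturase Sc5d (-0.75), the sterol sensor partner Insig1 (-0.63) and lanosterol synthase, Lss (-0.62), and none rose. Sc5d went from 9.37 and 9.53 to 8.43 and 8.96 with no overlap, but 1 of its 2 detected probe sets moved the other way. Of 19 glycolysis genes 2 rose (10.5%) and 1 fell (5.26%): the neuronal enolase Eno2 (1.45) and lactate dehydrogenase B, Ldhb (0.99), rose and the phosphofructokinase Pfkl (-1.01) fell. Pfkl was at 8.93 and 8.50 in the control and at 7.61 and 7.80 with romidepsin. Of 14 genes for antigen presentation on MHC class I, Psmb9, a subunit of the immunoproteasome, rose by 0.49 (7.14%), with overlapping groups. It was not called with a random replicate block (adjusted p = 0.105), with no filter or with CD8 arrays alone. Of 16 tubulins and microtubule motors, 3 rose (18.8%), and 1 with CD8 arrays alone: Kif5c, Tubb2b and Kif3a (1.08), the last going from 6.36 and 6.57 to 7.98 and 7.12. Of 13 naive and memory genes, Cd44 alone rose (7.69%), from 11.66 and 11.76 to 12.61 and 12.52. Median changes of these 5 lists were -0.18, 0.07, -0.01, 0.02 and -0.19. Without romidepsin replicate 1 the calls in them numbered 1, 0, 0, 1 and 0, and without control replicate 1 they numbered 1, 0, 0, 1 and 1.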
